A study of Mus musculus with 12 samples.

Results

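Monohormonal *Ins2* cells, the β-cells of this single-cell data set, were the cells of the YFP- fractions with a high level of *Ins2* and none of the other islet hormones at a high level. Expression was put on the scale L, the natural log of 1 plus the unique molecular identifiers (UMIs, 1 per captured RNA molecule) of a gene per 10000 UMIs of the cell. Members had L above 6.36 for *Ins2*, at most 3.23 for *Ppy*, at most 5.12 for *Gcg* and at most 3.32 for *Sst*, and cells with L above 3 for *Cd74*, *Col3a1* or *Plvap*, which mark immune, stromal and endothelial cells, were dropped. The members were thus chosen by the measured levels of these 7 genes, whose values are given below without a test. The rule was applied to the 2 YFP- libraries only and found 529 members, 437 in experiment 1 and 92 in experiment 2. All 4 libraries together held 5982 cells.

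The study asked what distinguishes *Ppy*-expressing γ-cells from the other islet cells. Islets of the ventral pancreas of Ppy-YFPi mice were dissociated, sorted and sequenced with the 10x Genomics 3' kit in 2 independent experiments, each giving a YFP+ and a YFP- library. All mice carried Ppy-rtTA, in which the doxycycline-dependent activator replaces the coding sequence of a *Ppy* allele, with TetO-Cre and R26-YFP, on a mixed background. All received doxycycline at 1 mg/ml in the drinking water, begun a month before collection at 2 months of age, so that there was no untreated group and no *Ppy* wild-type control. Labelling is driven by the *Ppy* promoter and is permanent, so the YFP- fraction is depleted of *Ppy*-expressing cells but can hold unlabelled ones, and the labels give the age as wild-type although the protocol names the transgenes. The study used males and females, although no Y-linked UMI was seen in members, α-cells or δ-cells of experiment 2, and the libraries do not separate mice, so that an experiment is the unit of replication. Experiment numbers follow the labels.

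β-cells make insulin, the hormone that lowers blood glucose. Glucose enters through GLUT2, and its metabolism closes ATP-sensitive potassium channels, which lets calcium in and releases insulin granules. Mice have a pair of insulin genes, *Ins1* and *Ins2*, and store amylin (*Iapp*) in the same granules. Proinsulin is folded in the endoplasmic reticulum and cut by the convertases PC1/3 and PC2, and the transcription factors PDX1, NKX6-1 and MAFA hold the mature program.

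*Ins1* and *Iapp* gave a large share of all RNA in these cells, and their upstream sequences, with that of the glucose transporter gene *Slc2a2*, are shown because these genes separated members from every other islet class below. Each line holds the 250 bases before the RefSeq start (GRCm38.p6, + strand, 5′ to 3′), with TAAT or its reverse complement ATTA (the core letters of homeodomain motifs) and CATCTG or its reverse complement CAGATG (an E-box sequence) in capitals. *Ins1* lies at chr19:52264047-52264296, *Iapp* at chr6:142298175-142298424 and *Slc2a2* at chr3:28697653-28697902.
Ins1: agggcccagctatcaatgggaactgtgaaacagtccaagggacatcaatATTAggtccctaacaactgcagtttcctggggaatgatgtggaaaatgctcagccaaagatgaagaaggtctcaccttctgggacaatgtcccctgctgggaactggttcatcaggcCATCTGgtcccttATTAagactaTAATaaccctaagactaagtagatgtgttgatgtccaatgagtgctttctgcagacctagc
Iapp: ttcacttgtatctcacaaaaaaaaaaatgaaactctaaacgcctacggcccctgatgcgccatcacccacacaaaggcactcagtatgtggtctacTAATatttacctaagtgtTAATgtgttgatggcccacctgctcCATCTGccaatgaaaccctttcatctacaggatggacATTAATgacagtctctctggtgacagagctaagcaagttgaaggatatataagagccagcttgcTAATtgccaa
Slc2a2: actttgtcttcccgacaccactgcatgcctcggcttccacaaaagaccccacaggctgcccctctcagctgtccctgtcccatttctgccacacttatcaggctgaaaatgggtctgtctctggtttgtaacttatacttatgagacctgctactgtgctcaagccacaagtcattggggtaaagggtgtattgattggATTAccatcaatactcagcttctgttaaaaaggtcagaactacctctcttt
The *Ins1* window held 3 TAAT matches and 1 CATCTG match, the *Iapp* window 5 and 1, and the *Slc2a2* window 1 and 0. Neighbouring matches on both strands can overlap, as the capitals ATTAAT in *Iapp* show. Among 32851 windows of this length in the promoter table, 54.9% held TAAT at least once, 17.3% at least 3 times and 5.54% at least 5 times, and 14.4% held CATCTG. Such matches describe the letters only. RefSeq promoters were found for 4 of the 5 β-cell markers (*Ins1*, *Iapp*, *G6pc2* and *Nkx6-1*) and for 8407 of the 10793 genes tested.

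Members made up 437 of the 1495 cells of the YFP- library in experiment 1, or 29.2% with a 95% exact interval from 26.9 to 31.6, and 92 of 1689 in experiment 2, or 5.45% with an interval from 4.41 to 6.64. The binomial intervals cover counting error only, and sorting, mice and capture cannot be told apart as sources of the difference between the experiments. *Ins2* was above its threshold in 467 and 122 cells, of which 30 and 29 also passed a threshold of *Ppy* (12 and 12 cells), *Gcg* (10 and 20) or *Sst* (12 and 9) and 0 and 1 were dropped by a marker gene. L of *Ins2* had a median of 8.51 (lowest 6.47) in members of experiment 1 and 8.39 (lowest 7.07) in those of experiment 2, against medians of 4.47 and 3.53 in cells below the threshold. The threshold equals 5.77% of the UMIs of a cell. Among cells low in the other hormones, those just inside it in experiment 1 lay at L of 6.47, 6.53 and 7.45, and those just outside at 6.12, 6.14 and 6.35. In experiment 2 the nearest cells were at 7.07, 7.26 and 7.83 inside and at 4.39, 4.62 and 4.64 outside. The member nearest to the threshold had 339 *Ins2*, 86 *Ins1* and 19 *Iapp* UMIs among 5278. Acinar genes, those of the exocrine pancreas, held 53.7% of its UMIs and 52.6% of those of the next member, and 49.7% to 55.7% in the 3 cells just outside, so that membership near the threshold in experiment 1 fell among cells rich in acinar RNA.

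**Figure D1:**
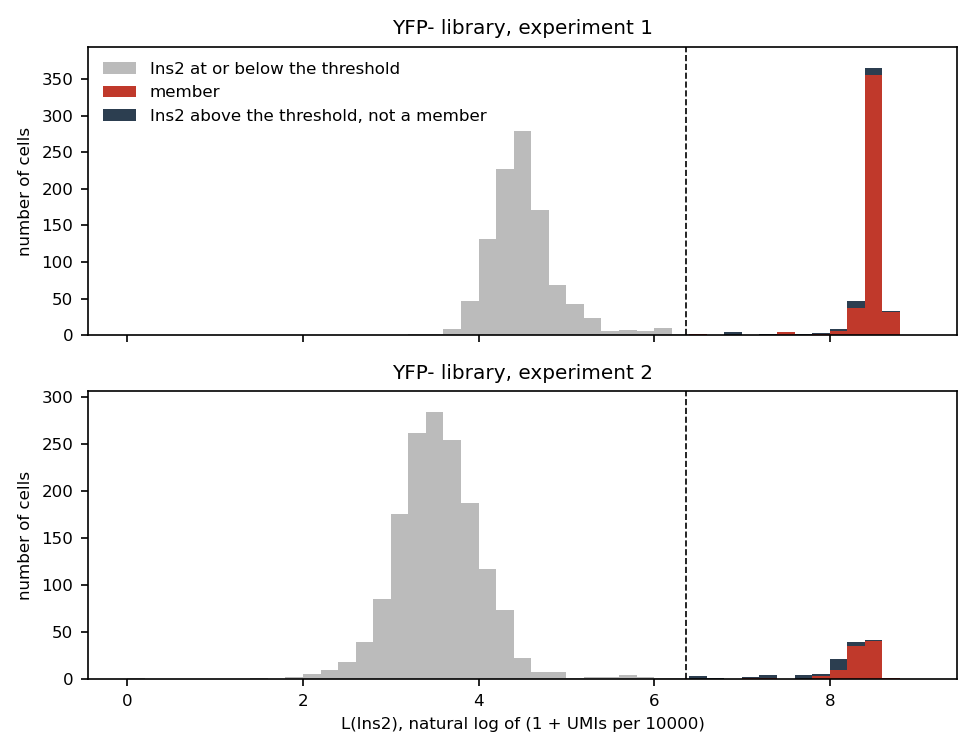
Histograms of the *Ins2* level L (natural log of 1 plus UMIs per 10000) over the cells of each YFP- library, with the number of cells on the vertical axis. The dashed line is the threshold of 6.36; members (red) have medians of 8.51 and 8.39, and cells at or below the threshold (grey) have medians of 4.47 and 3.53.

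The libraries differed in depth, and so did the members. The YFP- libraries held 18330975 UMIs in 1495 cells and 10683494 UMIs in 1689 cells, with medians of 8338 and 4237 UMIs per cell, and the YFP+ libraries held 11705631 UMIs in 1300 cells and 11523971 in 1498. Members had a median of 23832 UMIs (2198 to 47345) and 2393 genes in experiment 1, and of 12529 UMIs (3198 to 35815) and 1780.5 genes in experiment 2. Outside *Ins1* and *Ins2* they held 7322 and 4541.5 UMIs. Between 1 and 6 cell barcodes were shared by any 2 of the 4 libraries. No doublets were removed for the values below. Scrublet scores in the highest 2% of a library fell on 7 and 1 members, and total UMIs in the highest 2% on 24 and 11 members, and both groups were left out in turn as alternatives.

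Insulin RNA filled most of a member's transcriptome. In experiment 1 *Ins2* took a median of 49.7% of the UMIs (range 6.42 to 59.4), and in experiment 2 its median was 44.2% (range 11.8 to 54.9), values on which the rule itself selected. *Ins1*, which the rule did not use, took 20.1% (0.778 to 33.1) and 20.4% (4.31 to 28.9), and *Iapp* took 4.91% (0.333 to 17.8) and 4.84% (2.12 to 9.74). For every 100 *Ins2* UMIs a member held a median of 40.2 *Ins1* UMIs (3.12 to 83.4) in experiment 1 and 46.3 (10.8 to 66.1) in experiment 2, so the ranges of both experiments overlapped. The coding sequences of *Ins1* and *Ins2* are nearly identical, and a read counted for one may come from the other, so their ratio is uncertain. The other hormones were low by rule, with medians of 0.0912% and 0.256% for *Gcg*, 0.0216% and 0.0371% for *Sst* and 0.00533% and 0.0111% for *Ppy*. Non-endocrine cells, those with L above 3 for *Cd74*, *Col3a1* or *Plvap* and no hormone above its threshold, give the background of these values, and their sums in the same libraries had 0.745% and 0.327% of UMIs from *Ins2*, 0.20% and 0.106% from *Ins1*, and 0.123% and 0.368% from *Gcg*.

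**Figure D2:**
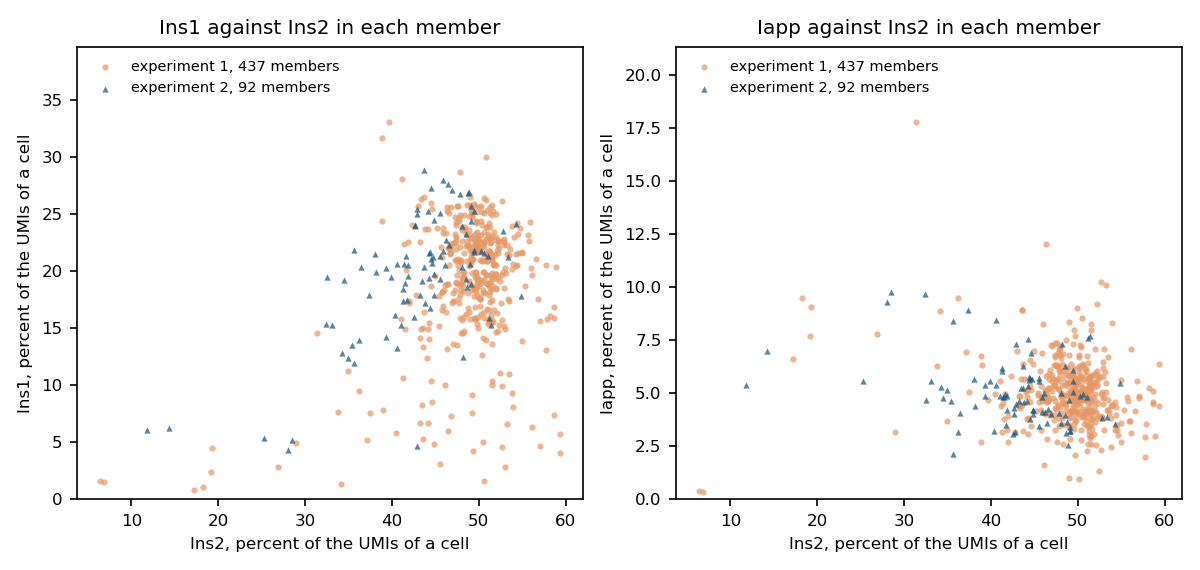
*Ins1* (left) and *Iapp* (right) against *Ins2* in each member, all as percent of the UMIs of the cell, with circles for the 437 members of experiment 1 and triangles for the 92 of experiment 2. Most members lie near the medians of 49.7 and 44.2% *Ins2*, and a thin tail reaches down to 6.42% *Ins2* with little *Ins1*.

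Most of the β-cell markers named here that the rule did not use were detected in most members at full depth. *Pdx1* was less widely seen, with a UMI in 63.6% of members in experiment 1 and 40.2% in experiment 2. *G6pc2*, a β-cell glucose-6-phosphatase subunit, had a UMI in 95.7% and 89.1% of members against 3.49% and 2.32% of non-endocrine cells. *Nkx6-1* was seen in 86.0% and 70.7% of members against 0.873% and 0.386%, and *Mafa* in 77.6% and 67.4% against 3.06% and 0.579%. *Ins1* was seen in 100% of members but also in 100% and 93.6% of non-endocrine cells, so that only its level sets members apart. These shares set cells of unequal depth side by side, since non-endocrine cells had medians of 4659 and 2903.5 UMIs.

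Members were then compared with the other monohormonal classes on sums of UMIs over the cells of a class and experiment, since cells of a library are not replicates. α-cells (*Gcg*) gave 326 and 345 cells and δ-cells (*Sst*) 135 and 141 cells, all from the YFP- libraries that also held the members, and γ-cells (*Ppy*) gave 721 and 828 cells from the YFP+ libraries, so that class and library cannot be told apart for γ-cells. Levels are CPM, the counts of a sum scaled to the same total with TMM factors, and p-values come from edgeR's quasi-likelihood test with Benjamini-Hochberg adjustment over 10793 genes, with the experiment as a block. Calls needed an adjusted p no higher than 0.05 together with a log2 difference beyond 0.721 in either direction, which is 0.5 in natural log units. Each class had 2 sums, and the 3 comparisons share the members' sums. The spread was pooled over 8 sums with 3 residual degrees of freedom, to which the test adds a prior of 11.9 borrowed across genes. Against α-cells 1135 genes (10.5% of those tested) were higher in members and 968 (8.97%) lower, against δ-cells 751 (6.96%) and 697 (6.46%), and against γ-cells 1308 (12.1%) and 1094 (10.1%). Over all genes tested the median log2 fold change was -0.01, 0.02 and 0.00. The lists of genes below were drawn up with earlier results of these data known, so their counts describe them and support nothing further.

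**Figure D3:**
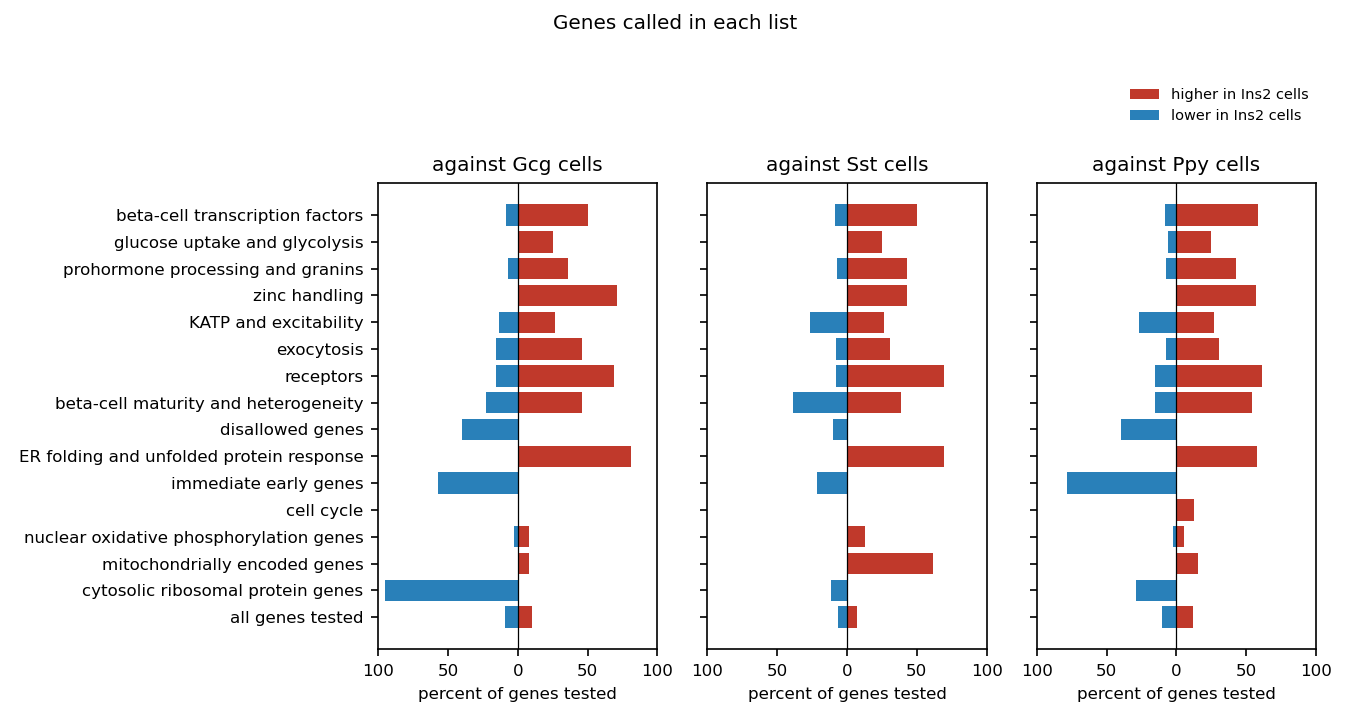
Percent of the tested genes of 15 lists of cell functions that were called higher (red, to the right) or lower (blue, to the left) in members than in α-, δ- and γ-cells, with all genes tested in the bottom bar. Against α-cells, the bar of endoplasmic reticulum genes lies to the right only (21 of 26 higher) and that of ribosomal protein genes to the left only (76 of 80 lower), while insulin genes and the markers of other classes are not drawn.

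Granule peptides came first. *Ins1* was 20.3% and 21.0% of the members' summed UMIs against 0.245% and 0.103% in α-cells, 0.297% and 0.132% in δ-cells and 0.0244% and 0.0224% in γ-cells (log2 fold change 8.01 ± 0.32, 8.11 ± 0.32 and 10.40 ± 0.35, SE). The α- and δ-cell levels lie near the 0.20% and 0.106% of non-endocrine cells in the same libraries, so that the size of these differences is uncertain, and the part of free RNA in them was not tested. *Iapp* was at 5.07% and 4.87% in members, 3.67% and 3.20% in δ-cells, 0.196% and 0.133% in α-cells and 0.258% and 0.241% in γ-cells. It was 5.93 ± 0.16 higher on the log2 scale in members than in α-cells and 1.95 ± 0.14 higher than in δ-cells (adjusted p = 6.09e-12 and 1.16e-07), so δ-cells came nearest to members for amylin RNA.

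Of 12 β-cell transcription factors, 6 were higher and 1 lower in members than in α-cells, 6 and 1 than in δ-cells, and 7 and 1 than in γ-cells. *Mafa*, an activator of insulin genes in mature β-cells, stood at 342 and 296 CPM in members, 2.16 and 1.23 in α-cells, 3.54 and 2.74 in δ-cells and 0 in both γ-cell sums. It was 7.53 ± 0.24 higher on the log2 scale than in α-cells (adjusted p = 3.75e-11) and at least 1214-fold higher than in γ-cells, counting 3 UMIs over the γ-cell sums as the floor. *Nkx6-1*, a repressor of α-cell genes, had 218 and 248 CPM in members, 2.78 and 11.0 in α-cells, 0 and 8.21 in δ-cells, and 45.9 and 42.2 in γ-cells. Its γ-cell level was the highest outside members, and the difference was 2.40 ± 0.28 (adjusted p = 1.32e-05). *Pdx1*, the pancreatic master regulator, was at 89.8 and 60.5 CPM in members and 51.9 and 30.1 in δ-cells, sums that did not overlap and differed by 0.86 ± 0.20 (adjusted p = 0.00894), a call that was lost without the block and with DESeq2. Against α-cells (1.85 and 0.306 CPM) the difference was 6.07 ± 0.29.

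General endocrine factors gave differences of mixed size and direction. *Neurod1* was at 186 and 183 CPM in members and at 174 and 162 in α-cells, a difference of 0.13 ± 0.14 that was not called. *Nkx2-2* was called against δ-cells (1.57 ± 0.20, adjusted p = 6.9e-05) and neither against α-cells (0.35 ± 0.15) nor γ-cells (0.02 ± 0.15). *Insm1*, a zinc-finger repressor of endocrine cells, was at 120 and 101 CPM in members against 19.8 and 27.0 in α-cells and 23.1 and 21.8 in γ-cells (2.26 ± 0.19 and 2.32 ± 0.18), while δ-cells had 89.6 and 79.4. *Isl1*, the LIM-homeodomain factor of all islet cells, was the list's lower member throughout: 108 and 92.6 CPM in members, 239 and 197 in α-cells, 358 and 271 in δ-cells and 202 and 187 in γ-cells (-1.12 ± 0.15, -1.65 ± 0.16 and -0.96 ± 0.15).

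**Figure D4:**
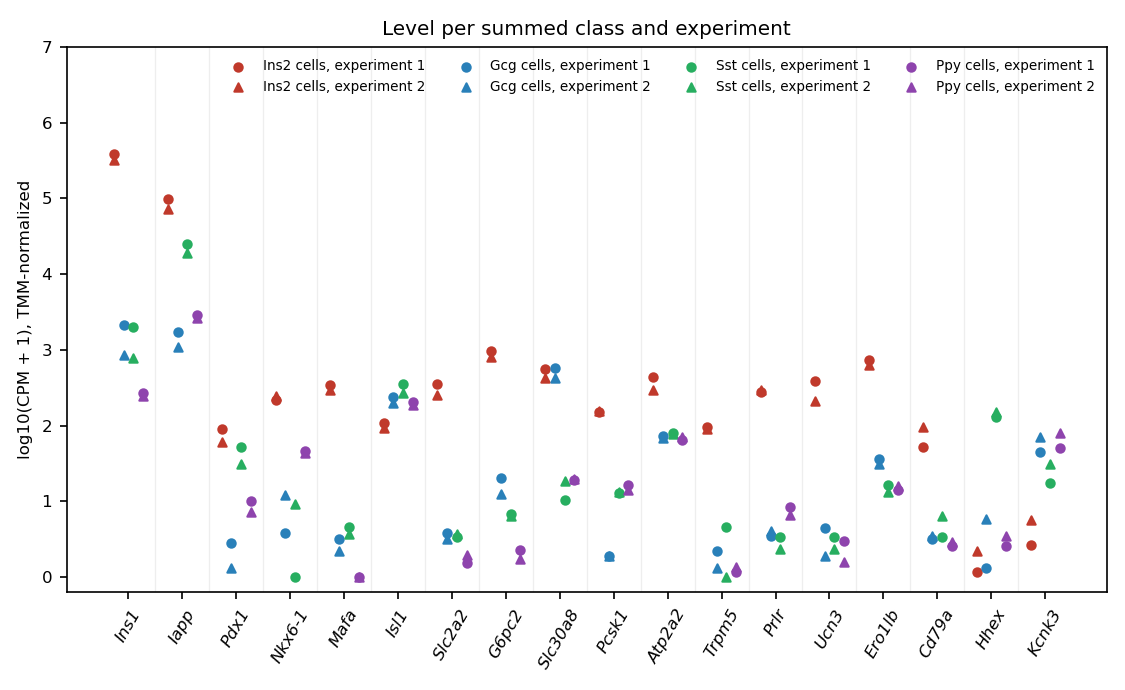
Level of 18 genes as log10(CPM + 1) in each class, with a circle for experiment 1 and a triangle for experiment 2. The red points of members lie above all other classes for *Mafa* (342 and 296 CPM), *Slc2a2*, *G6pc2*, *Prlr*, *Ucn3* and *Ero1lb*, beside those of α-cells for *Slc30a8*, and below all others for *Isl1* and *Kcnk3*.

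Glucose handling separated members at uptake and at glucose-6-phosphate. *Slc2a2*, which encodes GLUT2, was at 351 and 252 CPM in members and under 3 CPM in every other sum (6.91 ± 0.24 against α-cells, 6.88 ± 0.31 against δ-cells and 8.60 ± 0.26 against γ-cells). *G6pc2* was at 968 and 817 CPM against 19.2 and 11.3 in α-cells, 5.89 and 5.48 in δ-cells and 1.26 and 0.76 in γ-cells, with log2 differences of 5.89 ± 0.20, 7.30 ± 0.26 and 9.74 ± 0.26. Among 16 genes of uptake and glycolysis, 4 were higher and 0 lower than in α-cells, 4 and 0 than in δ-cells, and 4 and 1 than in γ-cells, so most enzymes of the glycolytic chain were not called. *Gpd2*, the mitochondrial glycerol-phosphate shuttle enzyme, was at 45.2 and 41.5 CPM in members, 42.9 and 34.3 in α-cells and 4.72 and 4.11 in δ-cells, and was called higher than in δ-cells (3.27 ± 0.33) and γ-cells (1.29 ± 0.16) but not than in α-cells. *Pcx*, pyruvate carboxylase, was at 33.0 and 11.9 CPM in members, 3.09 and 1.53 in α-cells and 3.59 and 2.28 in γ-cells (log2 difference from γ-cells 2.98 ± 0.35), with 0 and 2 UMIs in δ-cells.

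Against α-cells, prohormone processing split between the convertases. *Pcsk1*, which encodes PC1/3, was at 149 and 154 CPM in members, 0.927 and 0.919 in α-cells, 11.8 and 12.3 in δ-cells and 15.4 and 13.1 in γ-cells (7.29 ± 0.26, 3.64 ± 0.23 and 3.40 ± 0.16). *Pcsk2*, which encodes PC2, was at 5099 and 4732 CPM in members and 6537 and 4329 in α-cells, which overlapped and were not called (-0.12 ± 0.14). The δ-cell sums of *Pcsk2* lay below those of members, at 3096 and 2756 CPM. Of 14 genes of processing and granins, 5 were higher and 1 lower than in α-cells, 6 and 1 than in δ-cells, and 6 and 1 than in γ-cells. The granin *Chga* was higher against each class (0.93 ± 0.18, 2.43 ± 0.19 and 1.16 ± 0.18), although its excess over α-cells was 0.64 on the log2 scale in experiment 1 alone, short of the threshold. *Chgb* was higher than in α-cells (1.23 ± 0.18) and was lower than in δ-cells (-0.77 ± 0.18), where experiment 2 alone gave -0.31. *Scg2* was at 2352 and 1844 CPM in members and 277 and 323 in α-cells (2.79 ± 0.23).

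Zinc packs insulin into crystals, and *Slc30a8* encodes the zinc transporter of the granule. It was at 554 and 426 CPM in members and 569 and 430 in α-cells, a difference of -0.02 ± 0.18 that was not called, and at 9.43 and 17.8 in δ-cells and 18.3 and 18.6 in γ-cells (5.19 ± 0.26 and 4.72 ± 0.21). Members and α-cells thus overlapped for *Slc30a8*, far above the other classes. Metallothionein *Mt1* was at 1142 and 869 CPM in members and highest there (1.86 ± 0.25, 2.38 ± 0.27 and 1.07 ± 0.25). In all, 5 of 7 zinc genes were higher than in α-cells, 3 than in δ-cells and 4 than in γ-cells, and 0 lower.

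The subunits of the ATP-sensitive potassium channel were not called. *Abcc8*, its sulfonylurea receptor, was at 121 and 128 CPM against 110 and 104 in α-cells, 195 and 140 in δ-cells and 120 and 122 in γ-cells, and *Kcnj11*, its pore, was at 29.1 and 19.0 against 34.0 and 32.2, 34.2 and 43.8, and 44.5 and 35.7, and neither was called in any comparison. Calcium pumps of the endoplasmic reticulum were higher in members. *Atp2a2* (SERCA2) was at 434 and 296 CPM against 63.8 to 79.0 in the 6 other sums (2.37 ± 0.18, 2.23 ± 0.19 and 2.45 ± 0.18), and *Atp2a3* (SERCA3) at 101 and 102 against 16.5 to 46.5. The cation channel *Trpm5* was at 94.2 and 90.2 CPM in members and at 3.54 or less in the other sums. The leak channel *Kcnk3* (TASK-1) was lower in members, with 1.67 and 4.75 CPM against 43.9 and 70.8 in α-cells, 16.5 and 30.1 in δ-cells and 50.4 and 80.1 in γ-cells (-4.46 ± 0.26, -3.15 ± 0.36 and -4.65 ± 0.25). The sodium channel *Scn3a* was lower too (-1.75 ± 0.19, -2.58 ± 0.21 and -2.27 ± 0.18). Over 15 genes of excitability, 4 were higher and 2 lower than in α-cells, and 4 were higher and 4 lower against δ-cells and against γ-cells.

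In the exocytosis list, 6 of 13 genes were higher and 2 lower than in α-cells, and 4 were higher and 1 lower against each of the other classes. *Sytl4*, which encodes the granule protein granuphilin, had 531 and 88 UMIs in members (98.3 and 104 CPM), 2 and 1 in α-cells, 0 in both δ-cell sums and 5 and 5 in γ-cells. It was at least 52.2-fold higher than in δ-cells. *Syt13*, a synaptotagmin, was at 279 and 288 CPM and higher against all classes (1.81 ± 0.16, 1.74 ± 0.17 and 1.13 ± 0.15). *Stx1a*, a plasma membrane SNARE, was low in all classes and lower in members, at 1.11 and 2.37 CPM against 6.18 and 5.21 in α-cells (-2.07 ± 0.50, adjusted p = 0.00645).

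Of 13 receptor genes tested, 9 were higher and 2 lower than in α-cells, 9 and 1 than in δ-cells, and 8 and 2 than in γ-cells. Over all settings 3 to 9, 2 to 9 and 2 to 9 were higher, with the fewest in thinned cells, where 6 genes were tested. *Prlr*, the prolactin receptor, was at 281 and 297 CPM in members against 2.47 and 3.06 in α-cells and 7.35 and 5.70 in γ-cells (6.68 ± 0.23 and 5.45 ± 0.19). The fatty acid receptor *Ffar1* was at 87.0 and 96.1 CPM against 16.1 and 19.9 in α-cells and 17.8 and 13.5 in γ-cells (2.33 ± 0.19 and 2.53 ± 0.18). *Gipr*, a receptor of the incretin GIP, was at 20.9 and 16.6 CPM and higher against each class, with weaker evidence against δ-cells (1.18 ± 0.37, adjusted p = 0.0417), a call that 6 alternatives lost. *Glp1r* was among the 4 receptor genes that did not pass the filter on low counts. *Gpr119* differed in direction between the classes, at 7.04 and 5.93 CPM in members against 33.1 and 39.2 in α-cells and 16.3 and 16.1 in γ-cells (-2.36 ± 0.23 and -1.21 ± 0.24), while δ-cells had 0 UMIs and members were called higher, by at least 3.62-fold.

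Genes tied to β-cell maturity varied in direction. *Ucn3*, urocortin 3 of mature β-cells, was at 386 and 211 CPM in members and at most 3.40 in the other sums (7.12 ± 0.25 against α-cells). *Ero1lb*, the oxidase that forms disulfide bonds in proinsulin, was at 729 and 627 CPM against 35.2 and 30.6 in α-cells, 15.3 and 12.3 in δ-cells and 13.3 and 15.0 in γ-cells (4.36 ± 0.18, 5.61 ± 0.22 and 5.58 ± 0.19). *Rbp4*, retinol-binding protein, was at 61.8 and 193 CPM in members and 3190 and 2311 in δ-cells (-4.59 ± 0.37). *Cd24a* was at 3.15 and 10.7 CPM in members and 485 and 506 in δ-cells (-6.70 ± 0.29). Of 13 such genes, 6 were higher and 3 lower than in α-cells, 5 and 5 than in δ-cells, and 7 and 2 than in γ-cells. Over all settings 4 to 8 were higher than in γ-cells and 3 to 6 lower than in δ-cells, where the median log2 fold change ran from -0.86 to 0.41.

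Most of the listed folding genes of the endoplasmic reticulum were higher in members. Of 26 tested, 21 were higher than in α-cells, 18 than in δ-cells and 15 than in γ-cells, and 0 were lower in any comparison, with median log2 fold changes of 1.2, 0.99 and 0.82. *Sdf2l1*, an ER co-chaperone, was at 178 and 208 CPM in members, 29.7 and 33.7 in α-cells, 47.2 and 30.1 in δ-cells and 73.2 and 60.4 in γ-cells (2.59 ± 0.19, 2.29 ± 0.22 and 1.52 ± 0.18). *Hspa5*, the chaperone BiP, was at 448 and 468 CPM against 191 and 149, 292 and 175, and 178 and 197 (1.43 ± 0.19, 0.98 ± 0.20 and 1.28 ± 0.19), and experiment 1 alone gave 0.61 against δ-cells. *Manf*, a secreted ER stress factor, was at 429 and 533 CPM and higher against each class. *Xbp1*, whose spliced form drives this response, was at 105 and 117 CPM and was not called in any comparison. Over the other settings run for the list, 12 to 22 genes were higher than in α-cells, 9 to 18 than in δ-cells and 9 to 16 than in γ-cells, with 0 lower.

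Of 80 cytosolic ribosomal protein genes, 76 were lower than in α-cells, 9 than in δ-cells and 23 than in γ-cells, with 0 higher and medians of -1.23, -0.42 and -0.58. The count against α-cells was 76 under each alternative run for this list. Since levels are relative, fewer ribosomal transcripts per cell and more of the rest cannot be told apart. Of 14 immediate early genes, which respond within minutes to stimuli and to tissue dissociation, 8 were lower than in α-cells, 3 than in δ-cells (0 without the block) and 11 than in γ-cells, with 0 higher. Over all settings 3 to 9, 0 to 3 and 7 to 12 of them were lower, and 0 higher. *Egr1* was at 59.4 and 57.0 CPM against 148 and 146 in α-cells and 125 and 130 in γ-cells (-1.32 ± 0.16 and -1.11 ± 0.16). *Jun* was at 19.6 and 26.1 CPM against 63.7 and 79.3 in α-cells (-1.67 ± 0.30). In its call against δ-cells (-1.12 ± 0.36) *Jun* rested on experiment 2, as experiment 1 alone gave -0.25.

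Disallowed genes are housekeeping genes that β-cells keep silent. Of 10 tested, 4 were lower than in α-cells, 1 than in δ-cells and 4 than in γ-cells, with 0 higher, and 6 of the 16 listed did not pass the filter. Over all settings 0 to 4, 0 to 2 and 1 to 4 were lower, and in thinned cells, where 1 of these genes was tested, no call was left against α- or δ-cells. *Hk1*, the low-Km hexokinase, had 0 UMIs in both member sums and 7.42 and 7.35 CPM in α-cells, so that it was at least 15.4-fold lower. *Oat* was at 1.48 and 1.19 CPM against 23.5 and 27.3 in α-cells (-3.97 ± 0.41). *Ldha*, lactate dehydrogenase A, was at 0.926 and 9.49 CPM in members and 1.24 and 10.7 in α-cells, so that the experiments differed more than the classes. Of 14 cell cycle genes 8 were tested. The proliferation marker *Mki67* was at 1.30 and 4.75 CPM, while the cyclin *Ccnd2* was at 1344 and 1055 CPM and was the list's only call (0.94 ± 0.17 against γ-cells, and 0.51 in experiment 2 alone). Of the 13 genes encoded by mitochondrial DNA, 1, 8 and 2 were higher (0 to 1, 3 to 9 and 0 to 2 over all settings). Of 77 nuclear genes of oxidative phosphorylation, 6, 10 and 4 were higher and 2, 0 and 2 lower. Over all genes tested, 10.5%, 6.96% and 12.1% were higher and 8.97%, 6.46% and 10.1% lower.

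Genes of the neighbouring classes marked where members ended. All 10 tested α-cell genes other than *Gcg* were lower than in α-cells. *Irx1*, a homeobox factor gene, had 0 UMIs in members and was at least 66.9-fold lower. *Ttr*, transthyretin, was at 1897 and 1195 CPM in members, 30211 and 20204 in α-cells, and 189 and 400 in δ-cells, so members lay between those classes (-4.03 ± 0.30 and 2.37 ± 0.29). The ETS factor *Etv1* was at 23.3 and 15.4 CPM in members and 271 to 534 in the 6 other sums (-4.28 ± 0.22, -4.03 ± 0.22 and -4.63 ± 0.22). All 5 δ-cell genes were lower than in δ-cells, with the δ-cell factor *Hhex* at 0.185 and 1.19 CPM against 131 and 149 (-8.42 ± 0.51). *Pyy*, peptide YY, was at 697 and 584 CPM in members against 276919 and 295754 in γ-cells, and was lower against each class (-3.27 ± 0.15, -5.16 ± 0.16 and -8.82 ± 0.19).

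Ranked by fitted difference among called genes with at least 20 CPM in the higher class and sums that did not overlap (686 genes), the 8 highest against α-cells were *Ins1*, *Sytl4*, *Npy*, *Mafa*, *Pcsk1*, *Car10*, *Ucn3* and *Slc2a2*, of which *Sytl4*, *Npy* and *Car10* rest on 1 to 3 UMIs in α-cells. The 8 lowest of 456 included *Irx1*, *Pdk4*, *Ndst4*, *Igsf21*, *Edn3*, *Vwde* and *Sgce*. *Irx1* and *Pdk4* had 0 UMIs in members, so that their place in this order is no measure of size, and the bound for *Irx1* was 66.9-fold against a fitted fold of 143 for *Ndst4*. In members of experiments 1 and 2, *Igsf21* had 1 and 0 UMIs, *Vwde* 2 and 0 and *Sgce* 1 and 1, so their places are uncertain too. *Pdk4*, a kinase that holds back pyruvate dehydrogenase, had 0 UMIs in members against 22.6 and 23.0 CPM in α-cells, at least 47.4-fold lower. *Edn3*, endothelin 3, was at 0.926 and 2.37 CPM against 101 and 96.8 (-6.43 ± 0.30). Against δ-cells, 571 genes qualified as higher. The first 8 by fitted difference, *Tmem215*, *Sytl4*, a clone-named gene, *Plut*, *T2*, *Skap1*, *Gpr158* and *Bmp1*, all had 0 UMIs in δ-cells, so that their fitted values are no measure of size. *Tmem215* was at 143 and 101 CPM and at least 72.4-fold higher, and *Bmp1* at least 12.3-fold higher. *Plut*, the long non-coding RNA next to *Pdx1*, was at 35 and 51 CPM with 0 UMIs in δ-cells, at least 19.6-fold higher. Of 407 that were lower, *Mest*, *Nhs*, *Clmp*, *Spock3*, *Hhex*, *Ly6h*, *Gap43* and *Ptprz1* came first by fitted difference. *Mest*, *Nhs*, *Clmp* and *Spock3* had 0 UMIs in members and bounds of 43.5 to 54.1-fold, so that their order is no measure of size either. These bounds lie below the fitted folds of the other 4, from 141 for *Ptprz1* to 342 for *Hhex*. Both ends of that range rest on 2 UMIs in members. *Gap43*, a growth-cone protein gene, was at 1.30 and 2.37 CPM in members and 277 and 149 in δ-cells (-7.41 ± 0.37).

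*Cd79a*, known as the B-cell receptor subunit CD79A, was on the immune list and yet higher in members. It was at 50.9 and 96.1 CPM in members, 2.16 and 2.45 in α-cells, 2.36 and 5.48 in δ-cells and 1.61 and 1.90 in γ-cells (4.93 ± 0.26, 4.20 ± 0.35 and 5.31 ± 0.24). It had a UMI in 29.3% and 31.5% of members, 1.84% and 2.32% of α-cells, 1.48% and 1.42% of δ-cells, and 24.9% and 18.0% of the non-endocrine cells, which include immune cells. Other B-lineage genes differed in level. Members of experiments 1 and 2 held 0 and 1 UMIs of *Ms4a1* and 3 and 1 of *Cd79b*, the partner subunit. Immunoglobulin RNA was seen more widely: *Ighm* had a UMI in 33.2% and 18.5% of members and in 22.1% and 10.7% of the shallower α-cells (0.162 and 0.165 UMIs per 10000 in members, 0.294 and 0.153 in α-cells), *Igkc* in 98.4% and 94.6% of members, and *Jchain* in 29.3% and 36.96%. In the sums, members held 2.58 and 2.69 *Igkc* UMIs per 10000, against 3.75 and 8.48 in α-cells and 4.04 and 65.5 in δ-cells. Non-endocrine cells held 1700 and 198. *Jchain* was at 30.9 and 53.4 CPM in members, 21.0 and 149 in α-cells and 15.3 and 641 in δ-cells. The part of B-lineage cells or their free RNA in the level of *Cd79a* was not tested.

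Other cell types left few reads in members. Of 13 immune genes tested, 2 were higher and 1 lower than in α-cells, 1 and 1 than in δ-cells, and 7 and 0 than in γ-cells. Over all settings 1 to 3, 1 to 4 and 3 to 9 were higher and 0 to 1, 0 to 3 and 0 lower. The 15 listed genes summed to 3.62 and 7.53 UMIs per 10000 in members against 5.78 and 15.7 in α-cells, with *Igkc* the most abundant. Endothelial genes summed to 0.0620 and 0.157 and stromal genes to 0.0378 and 0.613 per 10000. Acinar genes summed to 7.90 and 0.919 per 10000 in members, 33.5 and 2.83 in α-cells, 51.4 and 116 in δ-cells and 1.64 and 1.16 in γ-cells, with *Clps* leading in members. Of 12 acinar genes 11 were lower than in δ-cells and 6 higher than in γ-cells, but few cells set these sums. In experiment 1, 2 members with over 1% acinar UMIs (up to 53.7%) held 75.3% of the members' 8155 acinar UMIs. Without such cells, members had 1.95 and 0.919 acinar UMIs per 10000 and δ-cells 5.40 and 5.90, and 1 acinar gene was called lower than in δ-cells and 7 higher than in γ-cells. With hormone thresholds lowered by 0.5, 0 acinar genes were called lower than in δ-cells and 11 higher than in γ-cells. The list's median log2 fold change then went from -3.21 to 0.40 against δ-cells and from -0.79 to 0.56 against α-cells.

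Levels in members were also compared between the experiments. Among 1570 genes with at least 50 CPM in members in either experiment, a filter that lets in genes high in a single experiment, 47 (2.99%) were more than 1 log2 unit higher in experiment 2 and 24 (1.53%) more than 1 log2 unit lower, with no test since each experiment gave a single sum. The largest differences upward were *Apoa1* (0 and 59.3 CPM), *Apoa4* (0 and 57.0) and *Defa24* (0 and 53.4), genes of the intestinal lining, and the neutrophil genes *S100a9* (0.370 and 119) and *S100a8* (0.926 and 190). α-cells of the same libraries were also higher in experiment 2 for these 5 genes, with *S100a8* at 1.54 and 118 CPM and *Apoa4* at 0 and 45.6, and the size of the step was not compared between the classes. The largest downward were the acinar genes *Pnlip* (85.0 and 1.19 CPM), *Sycn* (68.3 and 1.19), *Ctrb1* (284 and 11.9), *Rnase1* (105 and 5.93) and *Clps* (571 and 47.5). Part of these UMIs lay in the 2 members rich in acinar RNA described above, which held 75.3% of the acinar UMIs of members in experiment 1. Without them *Clps* was at 0.49 in place of 2.99 UMIs per 10000, against 0.31 in experiment 2, and *Ctrb1* at 0.44 in place of 1.48, against 0.0786, so that little of the difference was left for *Clps* and more for *Ctrb1*. By contrast *Nkx6-1* (218 and 248 CPM), *Prlr* (281 and 297) and *Pcsk1* (149 and 154) held nearly the same level in both experiments, whereas *Ucn3* went from 386 to 211.

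*Xist* is the RNA of the inactive X chromosome of females. In experiment 2, 89 of 92 members had *Xist* and 0 had a UMI of a Y-linked gene (*Ddx3y*, *Eif2s3y*, *Kdm5d* or *Uty*), and in experiment 1, 107 had *Xist* only, 209 Y-linked UMIs only, 21 both and 100 neither. Among cells with *Xist* only, members held 22.5 and 21.8 *Xist* UMIs per 10000 UMIs outside the hormones, against 39.0 and 39.1 in α-cells and 37.9 and 38.9 in δ-cells. Per cell with *Xist* only, members held 16.2 and 10.43 *Xist* UMIs, against 23.8 and 20.5 in α-cells and 13.0 and 10.41 in δ-cells, so that members were lower than δ-cells relative to other RNA but not per cell. No test was run on these values. The fit over sums gave -1.32, -0.98 and -1.56 against α-, δ- and γ-cells, and all 3 calls were lost without the block. In experiment 1 these sums pool cells with *Xist* and cells with Y-linked UMIs. There 132 of 326 α-cells had *Xist* only and 92 Y-linked UMIs only, against 46 and 39 of 135 δ-cells. The part of this mix in the fitted values was not tested.

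Hormone genes and *Malat1* led the variation among members. Each member was thinned to 2000 UMIs and the variance of a gene over its mean was ranked over the 655 genes with a mean of at least 0.1 UMI in both experiments, where the median was 1.05 and 1.06. At a fixed total, counting alone gives 1 less the gene's share of the UMIs, so about 1 for most genes and clearly less for *Ins2* (means of 974 and 856 of the 2000 UMIs) and *Ins1* (381 and 389), and the ranking makes no allowance for this. *Ins1* had ratios of 33.8 and 30.03, the nuclear RNA *Malat1* 30.5 and 42.9, *Ins2* 14.5 and 25.6, *Iapp* 10.7 and 11.4, and *Chga* 6.34 and 4.43. By the lower of their ranks in both experiments, *mt-Co1*, *mt-Co3*, *Mt1* (2.38 and 3.85), *Chgb* and *Pyy* (31.3 and 2.01) completed the first 10. *Pyy* tied for the last of these places with *Gpx3* (1.78 and 2.27), both having 17 as the lower rank. Acinar genes did not pass that filter in experiment 2, and in experiment 1 *Clps* (421) and *Ctrb1* (173) had higher ratios than any gene ranked. Among β-cell factors *Pdx1* was at 0.972 and 0.956, *Mafa* at 1.195 and 1.18, *Pax6* at 1.11 and 1.35 and *Nkx6-1* at 1.14 and 1.44. Across members the genes most like *Ins2*, by Spearman's rho on the L scale with *Ins1* and *Ins2* left out of the total, were *Ins1* (0.82 and 0.91), *Ttr* (0.42 and 0.44), *Ero1lb* (0.39 and 0.43), *Iapp* (0.36 and 0.50) and *Prss53* (0.34 and 0.38), over 437 and 92 cells and among 2694 genes. These points share a library and a denominator, and *Ins2* itself had rho of -0.11 and 0.10 with depth, so they are descriptions only. *Mafa* had rho of 0.28 and 0.36, *G6pc2* 0.29 and 0.25, and *Nkx6-1* 0.03 and -0.10.

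A few genes were carried by few members. All 187 and 45 UMIs of *Npy*, neuropeptide Y, lay in 17 of 437 and 2 of 92 members, with up to 56 and 35 UMIs in a cell. *Pyy* had a UMI in 94.1% and 92.4% of members, yet 22 of 437 members held 58.2% of its UMIs in experiment 1, up to 441 UMIs or 5.38% of a cell, while the top 5 of 92 held 32.7% in experiment 2. *G6pc2* was spread over members, with 13.5% and 21.2% of its UMIs in the same numbers of cells, and so was *Ucn3* (14.4% and 25.3%). *Clps* had 87.0% and 32.5% there. For *Pyy*, the median member had 0.0131% and 0.0292% of its UMIs from the gene, so its wide detection was at a low level. In the sums, members held 3.65 and 3.87 *Pyy* UMIs per 10000, against 1.33 and 3.47 in non-endocrine cells of the same libraries. The part of free RNA in the detection of *Pyy* was not tested.

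**Figure D5:**
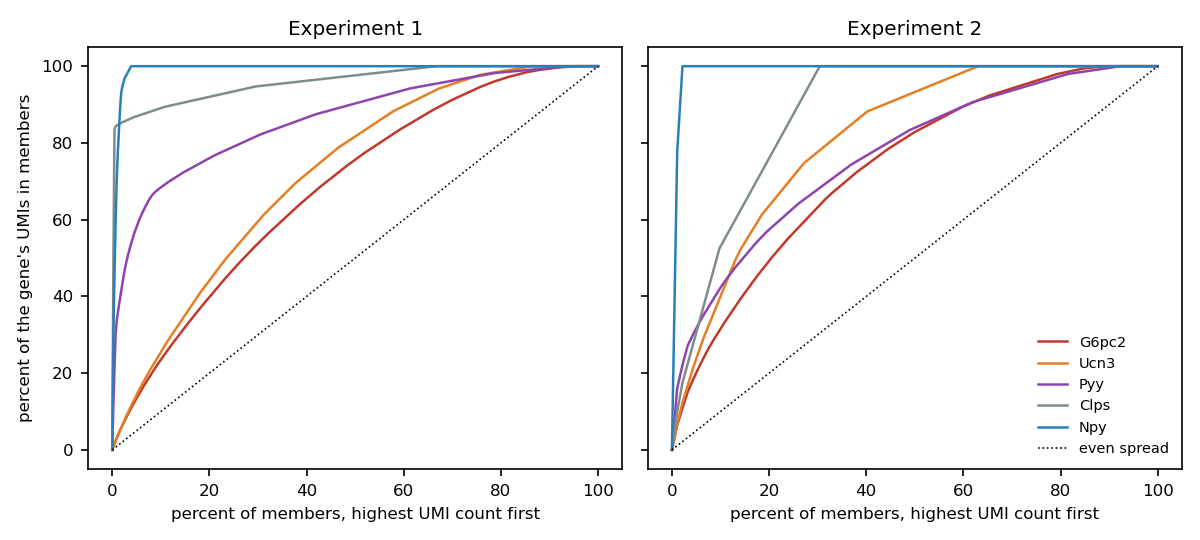
Percent of a gene's UMIs (vertical) held by a given percent of members, counted from the member with the most UMIs (horizontal), for 5 genes in each experiment; the dotted line is an even spread. *Npy* reaches 100% within 17 of 437 and 2 of 92 members, *Clps* and *Pyy* bend sharply in experiment 1, and *G6pc2* and *Ucn3* stay nearest to the even line in experiment 1.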

How the data were processed

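Gene by cell tables of UMI counts were deposited by the authors for 4 libraries, and 8 bulk samples of the series were not used. The submitters' processing notes name Cell Ranger, Seurat, R 3.6.1 and the build mm10, and the study's methods name DoubletFinder and Scrublet for removing doublets before their own analysis. Reads of near-identical genes can be divided between them or lost in such counts. Members and gene lists were chosen with earlier results of these data known.

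Cells were classed by the thresholds given above, and the counts of all cells sharing a class and an experiment were added up. Of 31055 genes, 10793 passed edgeR's filter on low counts. Sums were scaled by TMM and fitted with edgeR 4.0.16 (R 4.3.3) by quasi-likelihood over class and experiment, with a common dispersion of 0.0167 and Benjamini-Hochberg adjustment. Both fractions of an experiment came from the same mice, and the shifts between experiments correlated between classes (0.143 to 0.447, every pair above 0.1), so the experiment was kept as a block. DESeq2 1.42.0 was an alternative, and the others are named with their effect at the end. Scrublet was run through scanpy 1.11.5 as an alternative only. The fit was tested on simulated counts.

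Named genes were genes of the lists, the 8 called genes with the largest difference in each direction against α- and δ-cells (at least 20 CPM in the higher class, no overlap between the sums, predicted genes counted but not named), the 5 with the largest difference each way between experiments (1 count added), the 10 most variable among members by the lower of both ranks, and the 5 most like *Ins2*. *Ms4a1*, *Cd79b* and *Ighm* were added after the values of *Cd79a* were seen. A few genes meeting the rule are left unreported. A fold against a class at 0 was computed against 3 counts over the class and is a lower bound. Depth ran from 438022 to 10326214 UMIs per sum. Intervals cover counting error only.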

Additional observations from a re-analysis of the deposited data

Results flagged for a closer look

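*Npy*, neuropeptide Y, moved in opposite directions against δ-cells in the 2 experiments. The log2 ratio of CPM + 1, members over δ-cells, was -0.94 in experiment 1 (34.6 against 67.2 CPM) and 2.36 in experiment 2 (53.4 against 9.58 CPM), and the difference between the experiments was not tested. Its UMIs came from 17 and 2 members. In δ-cells its 57 UMIs of experiment 1 lay in 6.67% of 135 cells, and its 7 UMIs of experiment 2 in 0.709% of 141 cells.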

How the results depend on the processing

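The counts of genes called, 2103 against α-cells, 1448 against δ-cells and 2402 against γ-cells, moved most when fewer reads or genes were tested. With cells thinned to 1000 UMIs they were 494, 292 and 416, and with equal numbers of cells (92 per class and experiment) 1231, 930 and 1028. With DESeq2 they were 1409, 1009 and 1436. Without the replicate block they were 1557, 998 and 1612. Of the called genes, 1803 to 1926, 1289 to 1354 and 1938 to 2117 kept direction and fold in a single experiment, in which no test is possible. Among 4360 values of single genes under the alternatives, 103 lost their call, 36 gained one and 3 reversed. Genes that did not pass the filter under an alternative are not among these values, so calls lost in that way are not counted. In a single experiment, genes not called in the main fit were counted as unchanged. Of all called genes, 443 of 2103, 254 of 1448 and 361 of 2402 kept their call in thinned cells. The reversed values were *Clps* against α-cells after thinning (1.40), *Clps* against δ-cells with hormone thresholds lowered by 0.5 (0.30) and *Ctrb1* against δ-cells with cells over 1% acinar UMIs removed (0.36), an alternative chosen after seeing the data. The cause was not tested. Over all settings the genes higher in members numbered 2 to 5, 3 to 5 and 1 to 4 in the zinc list and 5 to 7, 2 to 6 and 5 to 7 among β-cell transcription factors against α-, δ- and γ-cells, and 3 to 6 against α-cells in the exocytosis list. Ribosomal protein genes that were lower numbered 7 to 17 against δ-cells and 19 to 35 against γ-cells. Each class had 2 sums, so that the spread of a gene rests on 3 residual degrees of freedom and a prior of 11.9 borrowed across genes.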
